A study of Mus musculus with 2 samples.

Results

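Small leucine-rich proteoglycans are secreted matrix proteins built around a short leucine-rich repeat domain, most of which carry chondroitin, dermatan or keratan sulphate chains. The 10 genes described here, Dcn, Lum, Bgn, Fmod, Ogn, Prelp, Aspn, Omd, Kera and Epyc, were taken by name from the 43346 Ensembl genes of the deposited gene tables. All 10 were found in both tables under their GENCODE mouse symbols.

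Total RNA sequencing was carried out on stomachs of healthy mouse embryos of strain B6NCrl at embryonic day 16.5, in 1 group of 2 biological replicates. Each replicate pooled stomachs of both sexes, with 41 embryos given for replicate 2 and no number for replicate 1, and 10 ng of RNA entered each library. No allele, treatment or other tissue was included, so there is no condition to compare; the data give the level of each gene in this tissue and the distance between the pools. Nothing in the labels ties a pool to 1 litter or day, and both carry the same donor label.

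In connective tissue these proteins bind collagen and regulate the width and spacing of its fibrils. Several also bind growth factors of the transforming growth factor beta and bone morphogenetic protein families, or receptors at the cell surface. In organs of the gut they are mainly products of fibroblasts and other mesenchymal cells below the epithelium. The family is grouped in classes by sequence: decorin, biglycan and asporin form class I, fibromodulin, lumican, prolargin, keratocan and osteomodulin class II, and epiphycan and osteoglycin class III.

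Expected counts over Ensembl genes, the estimated reads per gene, summed to 43195887 in replicate 1 and 25151165 in replicate 2. The markers of stomach mesenchyme and fibroblasts (Pdgfra, Barx1, Foxf1, Col3a1, Postn, Tcf21) were all detected. They summed to 2832 and 3179 TPM in replicates 1 and 2, of which Col3a1 alone gave 2405.24 and 2771.32 TPM. TPM is a transcript share that takes gene length into account and sums to the same total in each library. By log2 ratio of scaled counts (described below), 5 of the 6 markers were higher in replicate 1, with a median of 0.05. All 6 smooth muscle markers (4570.3 and 5603 TPM) and all 6 epithelial markers (3347 and 4753 TPM) were detected too. By the same ratio, 5 of 6 smooth muscle markers (median -0.23) and all 6 epithelial markers (median -0.35) were lower in replicate 1. Over all genes past the filter on low counts, 49.6% were lower in replicate 1. Of these markers, Gkn1, a gene of surface mucous cells, was beyond 2-fold between the pools (5.12 and 17.98 TPM). All 6 skeletal muscle markers (Myl1, Tnnc2, Ckm, Myh3, Myh8, Tnnt3) lay beyond 2-fold between the pools. They summed to 1257 TPM in replicate 1 and 79.8 TPM in replicate 2, so replicate 1 stood apart in skeletal muscle transcripts. Whether these differences between the pools touch the values below was not tested, and each gene is given in both libraries. In bulk tissue, fewer cells of a type and less RNA per cell cannot be told apart.

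Sequence before the transcription start is shown for 4 members because 3 of them, Aspn, Omd and Ogn, are neighbours on chromosome 13 with very unequal levels, and because Bgn had the highest GC content of the windows found. RefSeq windows on GRCm38.p6 (250 bases before to 50 after each gene's start) were matched for 8 of the 10 members, with 2 windows for Epyc; Dcn and Lum had no entry. The 250 bases before the start are printed 5′ to 3′ for Aspn (chr13:49544193-49544442, plus strand), Omd (chr13:49582212-49582461, plus strand), Ogn (chr13:49607765-49608014, plus strand) and Bgn (chrX:73483351-73483600, plus strand). Capitals mark exact matches on either strand to the TATA letters TATAAA, to the GC box letters GGGCGG and to the CCAAT box letters CCAAT. Also searched was TGANTCA, the letters of an AP-1 site, where N is any base.
Aspn: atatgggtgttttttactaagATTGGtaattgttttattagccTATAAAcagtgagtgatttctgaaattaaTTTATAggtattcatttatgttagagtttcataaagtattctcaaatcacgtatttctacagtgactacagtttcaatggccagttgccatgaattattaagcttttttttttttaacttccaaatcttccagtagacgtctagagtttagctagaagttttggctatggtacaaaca
Omd: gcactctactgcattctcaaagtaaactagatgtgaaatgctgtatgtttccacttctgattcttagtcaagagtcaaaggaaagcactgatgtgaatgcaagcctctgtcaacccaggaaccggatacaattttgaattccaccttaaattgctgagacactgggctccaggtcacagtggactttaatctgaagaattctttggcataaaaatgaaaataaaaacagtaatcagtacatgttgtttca
Ogn: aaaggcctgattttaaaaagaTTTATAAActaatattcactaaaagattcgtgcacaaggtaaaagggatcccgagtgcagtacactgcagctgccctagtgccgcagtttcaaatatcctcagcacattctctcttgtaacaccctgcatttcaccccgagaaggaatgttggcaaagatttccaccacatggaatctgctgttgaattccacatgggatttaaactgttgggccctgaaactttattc
Bgn: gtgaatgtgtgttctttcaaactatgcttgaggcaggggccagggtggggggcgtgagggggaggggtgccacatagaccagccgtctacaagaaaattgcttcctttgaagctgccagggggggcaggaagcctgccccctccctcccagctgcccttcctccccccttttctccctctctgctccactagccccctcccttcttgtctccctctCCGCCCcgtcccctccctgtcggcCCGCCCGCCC

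Of 32851 windows in the RefSeq table, 13.6% held TATAAA, 35.7% GGGCGG, 37.4% CCAAT and 7.81% TGANTCA, on either strand. In the Aspn window TATAAA lay at positions -207 (plus strand) and -178 (minus strand) relative to the start, and CCAAT at -229 on the minus strand. Ogn held TATAAA at -229 on the minus strand and -227 on the plus strand, which overlap in the letters shown. The Bgn window held GGGCGG on the minus strand at -34, -10 and -6, the last 2 of which overlap. Omd held none of these letters, nor did either Epyc window, and TGANTCA was in none of the 9 windows. In the windows of members not printed, CCAAT lay at -163, -107 and -74 for Kera, at 35 for Fmod and at -15 for Prelp. Positions are relative to the RefSeq start, which can differ from the GENCODE start given below. The whole Kera window (97606955 to 97607254) lies inside the GENCODE gene, which begins at 97606879.

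Base composition separated the windows. GC content was 31.0% for Aspn, 37.7% for Omd and 42.3% for Ogn, against a median of 52.7% over all windows; only 1.28% of windows had a lower value than Aspn. Bgn reached 63.7%, above 79.1% of windows, and Prelp and Fmod stood near the median at 55.3% and 51.0%. Kera had 41.0%, and the Epyc windows 40.3% and 32.3%. Low and high transcript levels both occurred among the members with GC-poor windows: Aspn and Ogn were abundant and Omd, Kera and Epyc were scarce.

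The family was transcribed at sharply unequal levels. Of the 10 members, 8 reached 1 TPM in both libraries, the level taken as detection, against 35.5% of all Ensembl genes. Dcn, Lum, Ogn, Aspn and Bgn made up 98.6% of the members' summed TPM in replicate 1 and 98.7% in replicate 2, while Fmod, Prelp, Kera, Epyc and Omd shared 1.40% and 1.34%. The 10 genes together stood at 1178 and 1316 TPM, a mean of 1247 ± 97.7 (SD, n = 2 libraries), which was 0.126% and 0.138% of the TPM of all Ensembl genes. Their summed TPM was 0.222 and 0.230 of that of 6 fibrillar collagen genes (Col1a1, Col1a2, Col3a1, Col5a1, Col5a2 and Col5a3), at 5297 and 5727 TPM.

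**Figure D1:**
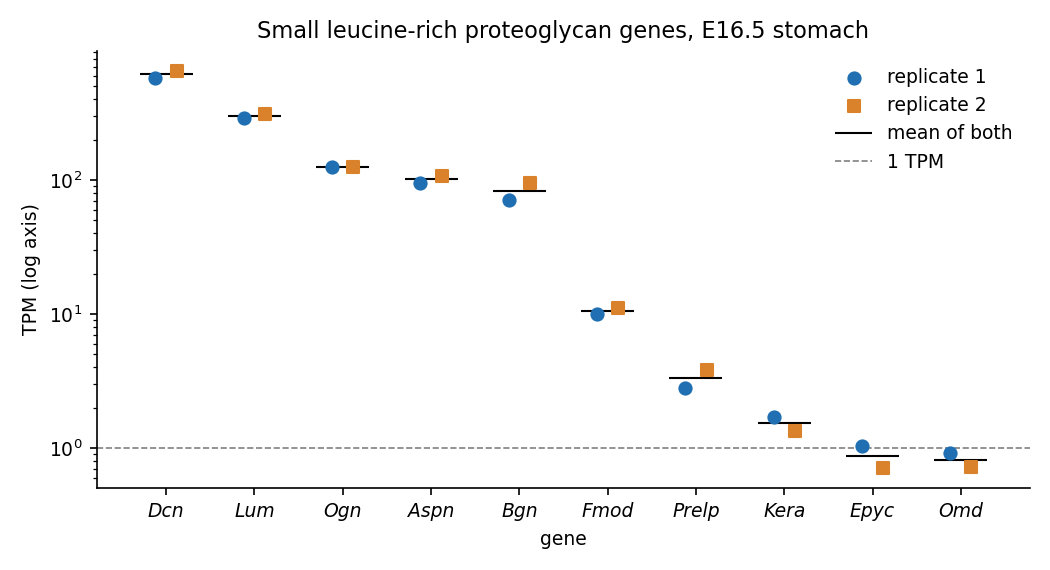
Levels of the 10 members in TPM on a log axis, by gene in falling order of mean, with a circle for replicate 1, a square for replicate 2 and a bar for their mean. Dcn, Lum, Ogn, Aspn and Bgn lie between 71.07 and 656.1 TPM and the other members between 0.71 and 11.01 TPM, with no value between these ranges.

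Class I held 63.3% of the members' TPM in replicate 1 and 65.3% in replicate 2. Dcn (ENSMUSG00000019929; chromosome 10, 97479609 to 97518143, plus strand, GRCm38) encodes decorin, a chondroitin or dermatan sulphate proteoglycan that coats collagen fibrils and binds transforming growth factor beta. It stood at 578.95 TPM in replicate 1 and 656.1 TPM in replicate 2, a mean of 618 ± 54.6 (SD, n = 2), from 31651 and 20052 expected counts. This put Dcn above 98.6% of the 15372 detected genes, at rank 208 of all Ensembl genes by mean TPM. Dcn alone was 49.2% and 49.9% of the family's TPM, and its level was 0.344 and 0.378 of that of Col1a1, the gene of the main chain of type I collagen.

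Bgn (ENSMUSG00000031375; chromosome X, 73483602 to 73495933, plus strand) encodes biglycan, the nearest relative of decorin and a ligand of Toll-like receptors when released from the matrix. Its level was 71.07 TPM in replicate 1 and 95.89 TPM in replicate 2, a mean of 83.5 ± 17.6, the widest spread relative to the mean among the 5 abundant members. Expected counts of 4506 and 3101 lay behind these values. Decorin transcripts were 8.15 and 6.84 times as abundant per length as those of biglycan.

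Aspn (ENSMUSG00000021388; chromosome 13, 49544443 to 49567565, plus strand) encodes asporin, which has a run of aspartate residues in place of the glycosaminoglycan attachment region of its class and binds collagen and transforming growth factor beta. Its level was 95.11 and 107.79 TPM in replicates 1 and 2, a mean of 101 ± 8.97, from 6558 and 4156 expected counts. The ranges of Aspn and Bgn overlapped, since Bgn in replicate 2 was above Aspn in replicate 1, although Aspn was the higher of the pair within each library (by 1.34 and 1.12 times).

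Class II held 26.0% of the members' TPM in replicate 1 and 25.1% in replicate 2, nearly all of it from 1 gene. Lum (ENSMUSG00000036446; chromosome 10, 97565128 to 97572703, plus strand) encodes lumican, a keratan sulphate proteoglycan that limits fibril thickness in cornea and skin. It stood at 290.24 and 313.4 TPM, a mean of 302 ± 16.4, from 17603 and 10629 expected counts, above 96.8% of detected genes. Dcn exceeded Lum by 1.99 times in replicate 1 and 2.09 times in replicate 2, and the ranges of the pair did not overlap.

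Fmod (ENSMUSG00000041559; chromosome 1, 134037254 to 134048277, plus strand) encodes fibromodulin, which competes with lumican for a binding site on collagen and is abundant in tendon and cartilage. Its level was 9.96 and 11.01 TPM, a mean of 10.5 ± 0.742, below the median of 15.4 TPM over detected genes. Lum was 29.1 and 28.5 times higher than Fmod, a nearly equal ratio in both pools. Prelp (ENSMUSG00000041577; chromosome 1, 133910304 to 133921414, minus strand), the gene of prolargin, a heparin-binding protein thought to anchor basement membranes to collagen, stood at 2.81 and 3.81 TPM, a mean of 3.31 ± 0.707.

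Kera (ENSMUSG00000019932; chromosome 10, 97606879 to 97613692, plus strand) encodes keratocan, the keratan sulphate proteoglycan of the corneal stroma. Its level of 1.71 and 1.35 TPM, a mean of 1.53 ± 0.255, was the lowest of the 8 detected members and exceeded only 3.91% of detected genes. It rested on 97 and 43 expected counts. Omd (ENSMUSG00000048368; chromosome 13, 49582462 to 49592822, plus strand), the gene of osteomodulin of bone matrix, reached 0.92 and 0.72 TPM from 41 and 18 expected counts and stayed below 1 TPM in both libraries.

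Class III held 10.8% and 9.55% of the members' TPM. Ogn (ENSMUSG00000021390; chromosome 13, 49608046 to 49624501, plus strand) encodes osteoglycin, or mimecan, first isolated from bone and found in many connective tissues. Its values of 125.85 and 125.0 TPM, a mean of 125 ± 0.601 from 9429 and 5237 expected counts, were the closest pair in the family. Epyc (ENSMUSG00000019936; chromosome 10, 97644068 to 97682454, plus strand), the gene of epiphycan of growth plate cartilage, stood at 1.04 TPM in replicate 1 and 0.71 TPM in replicate 2, from 53.24 and 21 expected counts. Epyc passed 1 TPM in replicate 1 only.

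By mean TPM the order was Dcn, Lum, Ogn, Aspn, Bgn, Fmod, Prelp, Kera, Epyc and Omd. Of the 9 pairs of neighbours in this order, the values of the 2 libraries overlapped for Aspn with Bgn and for Epyc with Omd. The widest step was from Bgn to Fmod, where the level dropped 7.14 times in replicate 1 and 8.71 times in replicate 2 (a mean log2 difference of 2.98 ± 0.20, SD, n = 2). The step from Ogn to Aspn was narrow, at 1.32 and 1.16 times, and Ogn was the higher in both libraries.

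The deposited tables give an interval on each TPM value, the level of which is not stated. For Dcn the point value lay above its interval in both libraries (562 to 574 TPM in replicate 1 and 626 to 643 TPM in replicate 2). Lum did so as well (281 to 289 and 297 to 309 TPM), as did Ogn and Aspn in replicate 2. The authors' posterior mean TPM lay inside, at 568.13 and 634.82 for Dcn and 284.8 and 303.23 for Lum, so for this pair the choice of estimate moved the level by less than the gap between the pools.

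Chromosomal neighbours differed widely in level. Dcn, Lum, Kera and Epyc lie within 203 kb on chromosome 10, all on the plus strand, with gaps of 47.0, 34.2 and 30.4 kb. Along this line the level was 618 and 302 TPM for Dcn and Lum (means) and 1.53 and 0.875 TPM for Kera and Epyc. Lum was 169.7 times higher than Kera in replicate 1 and 232 times in replicate 2, and Dcn 557 and 924 times higher than Epyc.

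On chromosome 13, Aspn, Omd and Ogn lie within 119.7 kb together with Ecm2, which encodes a related leucine-rich matrix protein. Omd, the middle of the 3 members, was separated from Aspn by 14.9 kb and from Ogn by 15.2 kb. Aspn was 103 and 149.7 times higher than Omd in replicates 1 and 2, and Ogn 137 and 174 times higher. Ecm2, 11.7 kb before Aspn, stood at 1.05 and 1.23 TPM. High and low genes thus alternated along the cluster, whereas on chromosome 10 the 2 high genes lay side by side.

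Prelp and Fmod lie 116 kb apart on chromosome 1, on opposite strands, with Optc (opticin, a relative known from the vitreous of the eye) 2.31 kb beyond Prelp. All 3 were low, from 1.55 TPM for Optc to 11.01 TPM for Fmod. Fmod exceeded Prelp by 3.54 and 2.89 times. The RNA genes between members had almost no signal: Gm1627, between Prelp and Fmod, stood at 0.01 and 0.02 TPM, and the pseudogene Gm18970 was listed at 0 in both libraries. The lincRNA 4930473O22Rik between Lum and Kera had no entry under its annotated identifier among the Ensembl genes used, so no level can be given.

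**Figure D2:**
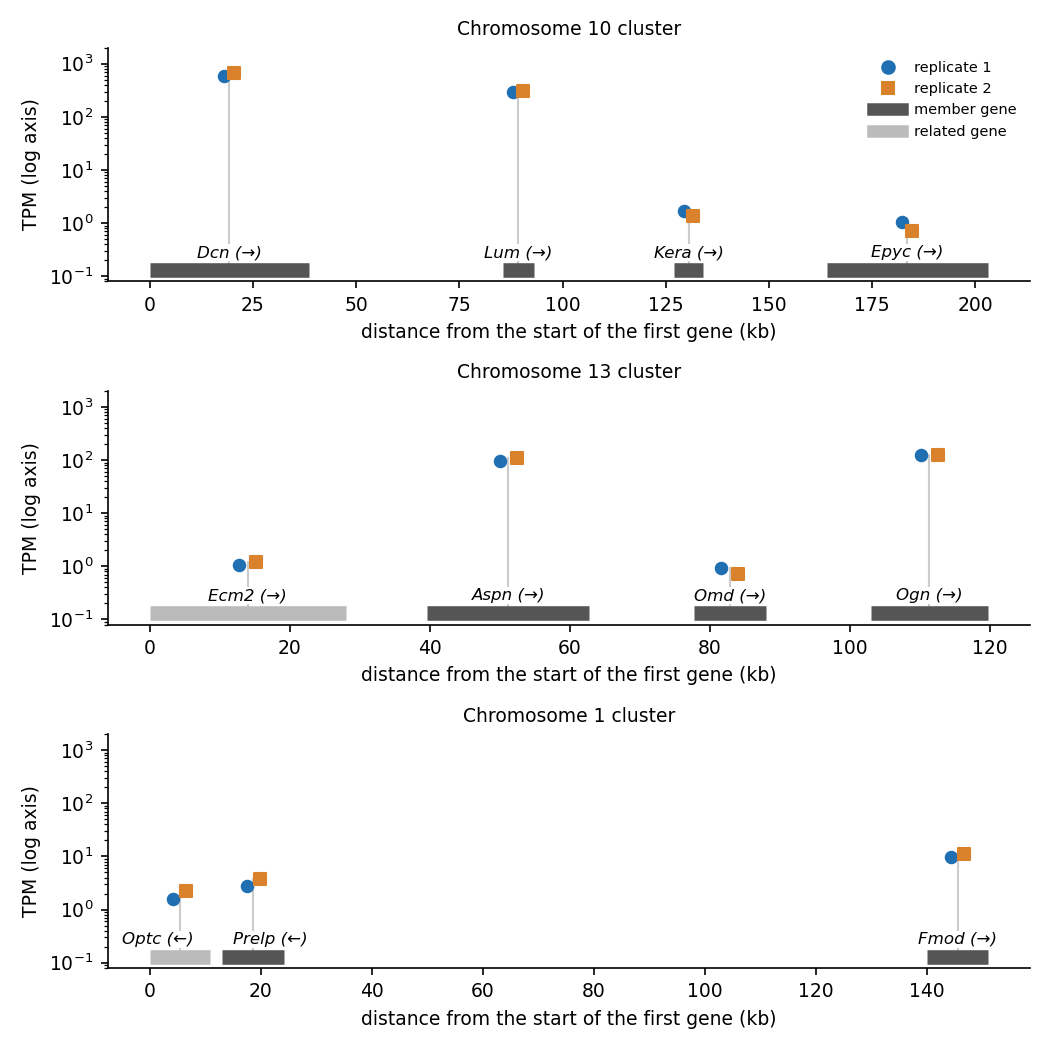
Levels of the clustered genes in TPM (log axis, circle for replicate 1, square for replicate 2) above their position in kb from the start of the first gene of each cluster, with dark bars for members, light bars for related genes and arrows for the strand. On chromosome 13 Omd, at 0.92 and 0.72 TPM, sits between Aspn at 95.11 and 107.79 TPM and Ogn at 125.85 and 125.0 TPM.

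Some members overlap other genes, and whether strand was used in counting is not given, so reads in shared exons could be assigned to either. Aspn, Omd and Ogn lie inside Cenpp, a centromere protein gene on the minus strand at 19.64 and 19.6 TPM. The annotated exons of Cenpp share 7 bases with Aspn and 0 bases with Omd or Ogn. Prelp shares 350 exonic bases with the antisense gene Gm15851 (0.12 TPM in replicate 1 and listed at 0 in replicate 2). Epyc shares 1041 exonic bases with the lincRNA Gm10754 (0.11 TPM in replicate 1 and listed at 0 in replicate 2), so the low level of Epyc is uncertain on this ground.

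Transcript composition was simple for most members. Lum, Ogn, Omd and Kera each had 1 transcript in the tables. Dcn-201 carried 93.63% of decorin TPM in replicate 1 and 93.14% in replicate 2 (93.4% ± 0.346, SD, n = 2), and Dcn-202, with an equal coding length of 1062 bases, carried the rest. Aspn-201 held 97.11% and 96.37%, and Fmod-201 and Prelp-201 carried all of the TPM of their genes in both libraries. Epyc-201 held 94.63% and 89.12%, from counts too few to rank its transcripts firmly.

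Bgn was the exception, with 8 transcripts. Bgn-201, its leading coding transcript of 2419 bases, carried 85.18% of the gene's TPM in replicate 1 and 75.4% in replicate 2 (80.3% ± 6.92). Bgn-208, annotated as a processed transcript of 548 bases with no coding sequence, carried 12.41% and 22.31%. In TPM, Bgn-201 stood at 60.54 and 72.31, and Bgn-208 at 8.82 and 21.4 with deposited intervals of 4.81 to 13.0 and 14.9 to 27.6.

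The difference between the pools was thus larger for the short non-coding transcript, with a log2 TPM ratio of -1.28 for Bgn-208 (replicate 1 over replicate 2) against -0.26 for Bgn-201. Only 121.58 and 164.89 expected counts were assigned to Bgn-208, but its shortness gives each count more weight in TPM. The deposited effective length of the gene was 2066 bases in replicate 1 and 1884 in replicate 2, so the gene's log2 TPM ratio of -0.43 was wider than its log2 count ratio of -0.26.

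**Figure D3:**
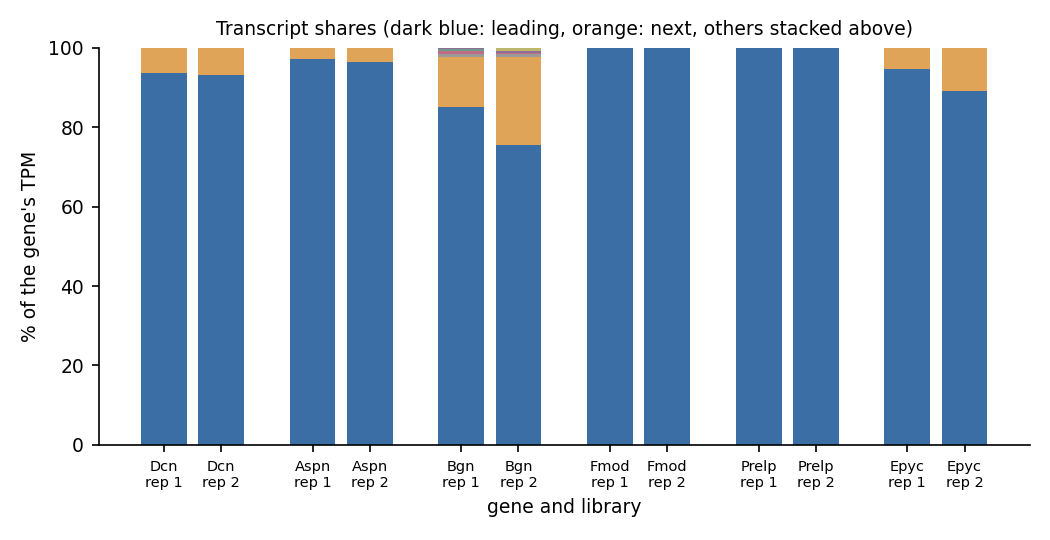
Share of each gene's TPM (%) in its transcripts, as stacked bars for replicate 1 and replicate 2 of the 6 members with more than 1 transcript; the leading transcript is at the bottom and the next above it. The leading transcript of Bgn holds 85.18% and 75.4%, less than that of any other member shown.

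Exon number set class II apart from the other members. The leading transcripts of Lum, Fmod, Prelp, Kera and Omd, all class II, each had 3 exons, while those of Dcn, Bgn, Aspn and Epyc had 8 and that of Ogn 7. Coding lengths were close to each other throughout, from 894 bases for Ogn to 1269 for Omd. Both structures were found among high and low members: Lum and Omd had 3 exons, and Dcn and Epyc 8.

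All members lay within 2-fold between the pools, though their median absolute ratio was above that of all genes. Ratios between libraries are log2 ratios of replicate 1 over replicate 2, from counts scaled by TMM (trimmed mean of M values); they have 1 library on each side, so they have no replicate check, and their 95% exact intervals cover counting error only. No member of 10 was beyond 2-fold, against 3.58% of the 17763 genes past the filter on low counts. Members lower in replicate 1 numbered 6 of 10, against 49.6% of all genes, a share near that background. The median ratio of the members was -0.09, against 0.00 over all genes, and the median absolute ratio was 0.20, against 0.14.

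Among abundant genes the ratio was -0.14 for Dcn (interval -0.17 to -0.12), -0.08 for Lum (-0.11 to -0.04), and -0.14 for Aspn (-0.20 to -0.09). Bgn had -0.26 (-0.33 to -0.20), and 72.6% of genes had a smaller absolute ratio. Ogn had 0.05, with an interval that held 0 and reached 0.09. The counts behind these genes were high enough that all but Ogn excluded 0, yet Dcn and Aspn were larger in absolute ratio than only 51.4% of all genes and Lum than 30.1%.

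The scarce members were measured less precisely. Prelp had the lowest ratio, -0.40 (-0.66 to -0.15), from 302.95 and 230 expected counts, and Fmod had -0.11 (-0.26 to 0.04). Kera, Omd and Epyc had positive ratios of 0.36, 0.36 and 0.50, with intervals of -0.16 to 0.92, -0.45 to 1.27 and -0.22 to 1.34, so a difference between the pools was not detectable at this depth. These 3 were the only members besides Ogn with a higher value in replicate 1.

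**Figure D4:**
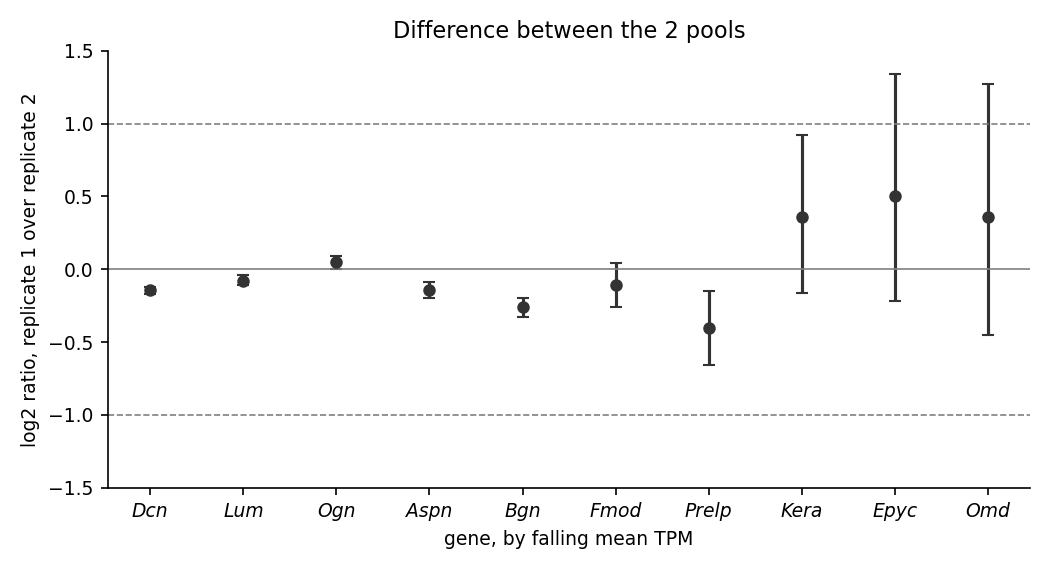
Log2 ratio of replicate 1 over replicate 2 (TMM-scaled counts) for each member, in falling order of mean TPM, with bars for the 95% exact counting interval and dashed lines at 2-fold. The points lie between -0.40 and 0.50, and the intervals widen from Dcn on the left to Epyc and Omd on the right.

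Markers of tissues in which the scarce members are best known were low in both pools. Counts of detected markers here and in the next paragraph stand beside a share of 35.5% over all Ensembl genes. All 4 tendon markers were detected, at a summed 18.8 TPM in replicate 1 and 15.0 TPM in replicate 2. All 4 were higher in replicate 1 (median ratio 0.28), where 49.6% of all genes past the filter were lower. Of 7 cartilage markers 4 were detected. All 7 summed to 22.6 and 20.5 TPM, of which Col11a1 gave most (14.57 and 13.53 TPM). Their median ratio was 0.25 over 5 past the filter. Col2a1, the gene of the main cartilage collagen, stood at 0.69 and 0.61 TPM, below its deposited intervals in both libraries (0.940 to 1.95 and 0.935 to 2.60 TPM), with posterior means of 1.42 and 1.73 TPM. Of 6 bone markers 2 were detected. All 6 summed to 10.2 and 11.7 TPM, of which Alpl gave most (7.95 and 8.77 TPM). Their median ratio was -0.28 over 4 past the filter, of which Ibsp was beyond 2-fold (0.23 and 0.68 TPM).

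The 3 corneal markers summed to 1.77 and 1.41 TPM, with 1 detected, Pax6, and Krt12, the corneal keratin, at 0.16 and 0.1 TPM. Pax6 gave 1.35 and 1.17 TPM of these sums, below its deposited intervals (1.71 to 2.90 and 1.80 to 3.53 TPM). Its posterior means were 2.28 and 2.62 TPM. No marker of these lists was at 0 in both libraries. Spleen mesenchyme markers, of which 3 of 4 were detected, summed to 68.7 and 60.2 TPM, with Tlx1 beyond 2-fold (2.82 and 0.95 TPM). All 4 mesothelial markers were detected, at 113 and 135 TPM. The part of any of these cell types in the members' values was not tested.

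The other genes of the leucine-rich proteoglycan group were scarce, with a median of 1.30 and 1.96 TPM in replicates 1 and 2, against 40.5 and 53.4 TPM for the 10 members. The members' medians fall in the gap between Bgn (71.07 and 95.89 TPM) and Fmod (9.96 and 11.01 TPM), where no member lies. Of the 8 other genes of the group 5 were detected, against 35.5% of all Ensembl genes. Chad, the gene of chondroadherin, a cell-binding protein of cartilage, was the highest at 13.02 and 18.94 TPM, and Tsku, the gene of tsukushi, a secreted modulator of signalling, stood at 7.76 and 9.41 TPM. Optc (1.55 and 2.27 TPM), Chadl (2.04 and 1.87 TPM) and Ecm2 were near the limit of detection.

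Podn, the gene of podocan, stood at 0.96 and 2.04 TPM, and Podnl1 (0.2 and 0.23 TPM) and Nyx, the gene of nyctalopin of the retina (0.05 and 0.06 TPM), were below 1 TPM in both libraries. In replicate 1 the Podn value lay below its deposited interval (1.06 to 2.29 TPM), and the posterior means were 1.62 and 2.74 TPM, by which Podn would count as detected. From TMM-scaled counts, the median log2 ratio over the 7 genes past the filter was -0.24, with 6 lower in replicate 1 and none beyond 2-fold. Over all genes past the filter these shares were 49.6% and 3.58%. Podn had -0.77 on that scale and -1.09 as a log2 ratio of unscaled TPM, which is beyond 2-fold.

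Genes that build the glycosaminoglycan chains of these proteins were expressed at moderate to low levels. Counts of detected genes in these and the other lists stand beside a share of 35.5% over all Ensembl genes. Of 7 genes for the linker tetrasaccharide 6 were detected, led by B3gat3 (29.3 ± 1.59 TPM), which adds its glucuronic acid, the xylose kinase gene Fam20b (29.0 ± 3.03 TPM), the xylose phosphatase gene Pxylp1 (25.6 ± 3.08 TPM) and B4galt7 (18.6 ± 2.79 TPM), which adds a galactose. Xylt1, which starts the chain, was the lowest at 0.62 ± 0.0283 TPM. Xylt2, which encodes an enzyme for the same step, was detected at 11.02 and 7.86 TPM.

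Of 16 chondroitin and dermatan sulphate genes 14 were detected. The polymerising factor gene Chpf (23.2 ± 0.573 TPM), the sulphotransferase genes Chst12 (20.5 ± 3.16 TPM) and Chst15 (20.0 ± 0.269 TPM) and the chain-extending Chpf2 (17.8 ± 1.30 TPM) led, and Chst13 was the lowest at 0.765 ± 0.290 TPM. All 8 keratan sulphate genes were detected, with the galactosyltransferase gene B4galt1 (41.7 ± 1.68 TPM), the core fucosyltransferase gene Fut8 (18.8 ± 0.0424 TPM), B4galt4 (17.1 ± 0.523 TPM) and B3gnt2 (10.3 ± 0.481 TPM) at the top. Chst5, a sulphotransferase gene important for keratan sulphate of the mouse cornea, was the lowest at 1.38 ± 0.233 TPM. The remaining keratan sulphate genes were low too: Chst2 (4.49 ± 0.410 TPM), B3gnt7 (3.88 ± 0.00707 TPM) and Chst1 (3.84 ± 0.445 TPM).

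No gene of these 3 enzyme lists was beyond 2-fold between the pools, against 3.58% of all genes past the filter, a share near that background. Their median ratios were -0.08, 0.06 and 0.03 for linker, chondroitin and keratan sulphate genes. Median levels of the lists were 18.6, 9.01 and 7.40 TPM (medians of mean TPM), against 15.4 TPM over all detected genes. All were below the members' median of 47.0 TPM, but that value falls in the gap between Bgn (83.5 TPM) and Fmod (10.5 TPM). Fmod, Prelp, Kera, Epyc and Omd each lay below the linker median of 18.6 TPM.

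**Figure D5:**
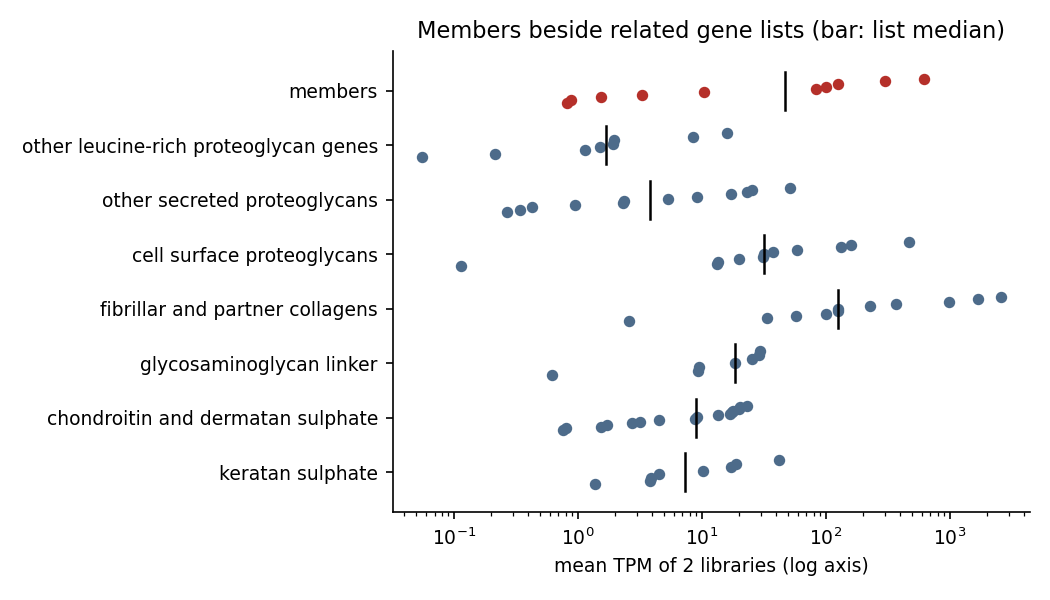
Mean TPM of 2 libraries on a log axis for each gene (points) of the members and of 7 related lists, with a vertical bar at each list's median. The members run from 0.820 to 618 TPM with a median of 47.0, and the fibrillar and partner collagens from 2.60 to 2588 TPM with a median of 126.

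Of the proteases that trim precursors of biglycan, osteoglycin and procollagens, Bmp1 stood at 29.3 ± 0.856 TPM, while Tll1 (0.73 and 0.56 TPM) and Tll2 (0.15 and 0.18 TPM) were below detection. Pcolce, which encodes an enhancer of this cleavage, was at 122 ± 6.12 TPM, of the same order as Ogn and Aspn, and Pcolce2 at 0.530 ± 0.240 TPM. All 11 collagen genes of the list were detected. Col3a1 (2588 ± 259 TPM), Col1a1 (1708 ± 36.2 TPM), Col1a2 (986 ± 0.516 TPM) and Col6a1 (372 ± 29.5 TPM) led, and Col5a3 was the lowest at 2.60 ± 0.0495 TPM.

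Growth factors known to bind members of the family were detected in 6 of 7 cases. Bmp4 (40.9 ± 5.40 TPM), Tgfb3 (27.6 ± 1.99 TPM), Ccn4 (27.2 ± 3.01 TPM) and Tgfb2 (20.2 ± 0.410 TPM) were the highest and Tgfb1 the lowest, at 1.43 and 0.96 TPM (posterior means 1.58 and 1.31 TPM). Of 10 receptor genes 9 were detected, led by the integrin gene Itgb1 (253 ± 3.01 TPM), the lipoprotein receptor gene Lrp1 (81.0 ± 5.68 TPM), Kdr (22.4 ± 1.57 TPM) and Egfr (14.1 ± 0.891 TPM), the last 2 of which encode receptor tyrosine kinases bound by decorin. Erbb4 was the lowest at 0.28 and 0.37 TPM.

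Among other secreted proteoglycans, 8 of 12 were detected and all were far below Dcn and Lum. Agrn (agrin, 52.0 ± 0.771 TPM), Hspg2 (perlecan, 25.3 ± 1.88 TPM), Vcan (versican, 23.4 ± 0.276 TPM) and Srgn (serglycin of blood cells, 17.3 ± 5.72 TPM) led, and Acan, the gene of the cartilage proteoglycan aggrecan, was the lowest at 0.33 and 0.21 TPM. Dcn exceeded Vcan by 25.0 and 27.8 times.

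Cell surface proteoglycans came closer to the family, with 10 of 11 detected. Gpc3, the gene of glypican 3, which is attached to the membrane by a lipid anchor, stood at 471 ± 25.0 TPM, which was 0.783 and 0.745 of Dcn and above Lum. Sdc1 (159 ± 17.9 TPM), Sdc4 (133 ± 16.7 TPM) and Sdc2 (59.1 ± 0.417 TPM) of the syndecan family followed, and Gpc5 was the lowest at 0.15 and 0.08 TPM. Gpc5 did not pass the filter on low counts and has no ratio. None of the other collagen, protease, growth factor, receptor, secreted and cell surface proteoglycan genes of these lists was beyond 2-fold between the pools in TMM-scaled counts. The share over all genes past the filter was 3.58%.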

How the data were processed

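Per the labels, RNA above 200 nt was isolated by the mirVana method, libraries took 10 ng, ERCC spike-ins were used and a manual of the SMARTer Ultra Low kit is listed. Build mm10 and annotation M4 are named in the deposited text files; for aligner, quantifier and use of strand the entry is "not given in the sources used here". Samples of the 1 group are named by the replicate numbers in the labels.

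For each library, 1 table of genes and 1 of transcripts came from the authors. Expected counts in them are estimated reads per feature, per the file headers. TPM and posterior mean TPM were deposited as length-corrected shares of all features, spike-ins included. The deposited FPKM values (counts per length and depth) served as an alternative. The percent of a gene's TPM in each transcript was deposited in the transcript tables. Each gene table held 69691 rows, of which 43346 Ensembl genes were used; 96 spike-ins (3.08% and 2.05% of counts in replicates 1 and 2), 26248 features with numeric identifiers (74.99 and 27.0 counts) and 1 other row stayed out.

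Expected counts were rounded, passed through filterByExpr with 1 group and TMM-scaled (factors 1.008 and 0.9921) with edgeR 4.0.16 under R 4.3.3; log2 ratios used a prior count of 2. Detection meant 1 TPM in both libraries. Counts of the libraries differed far beyond sampling noise (chi-square per degree of freedom 24.1 over 20017 genes with a summed count of 10 or more), so they are separate libraries. With 1 group no test and no p-value was computed. The ratio step was tested on simulated data. Positions and exons are those of GENCODE M21 on GRCm38. The older names Ctgf and Wisp1 were not matched, but Ccn2 and Ccn4, the current names of these genes, were. Figures were drawn with matplotlib 3.10.9, and scipy 1.17.1, pandas 2.3.3 and numpy 2.4.6 ran under Python 3.11.15.

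The members, gene lists and markers were chosen with earlier results of these data known. Named are all members and other leucine-rich proteoglycan genes, the 4 highest, the lowest and any gene beyond 2-fold of each other pathway list, and genes overlapping or lying between members. Xylt2, B3gnt7, Chst1 and Chst2 and, of the marker lists, Krt12, Pax6, Col2a1, Col11a1 and Alpl were named after their values were seen. Alternatives changed the detection level, the unit, the estimate, the pseudocount, the filter, the scaling (DESeq2 1.42.0 size factors or spike-ins) or the library used.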

Additional observations from a re-analysis of the deposited data

How the results depend on the processing

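With 2 libraries of 1 group, precision rests on depth and on the gap between 2 pools, and Kera, Epyc and Omd rest on fewer than 100 expected counts per library. Members detected numbered 10 at 0.5 TPM, 6 at 5 TPM, 7 by FPKM and 8 by posterior mean TPM, and 8 to 9 with 1 library left out. Leaving out a library gave a summed level of 1178 to 1316 TPM; it could not be done for ratios, which need both. The mean level of Lum was 319.7 TPM, and that of Ogn 133 TPM, when TPM was taken over Ensembl genes only, which removes the spike-ins, and Ogn was 122 TPM by posterior mean. Leading transcript shares by posterior mean were 98.6% for Fmod, 93.0% for Prelp and 84.4% for Epyc.

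The median log2 ratio of the members (-0.09) was -0.13 and -0.12 from unscaled TPM with pseudocounts of 0.1 and 1, and -0.67 under spike-in scaling, which moved the median of all genes to -0.57. Spike-in scaling reversed Ogn (-0.53), Omd (-0.18), Kera (-0.20) and Epyc (-0.04), so that all 10 members were below 0; the cause of the spike-in difference was not tested. DESeq2 size factors and a prior count of 0.5 left the direction of all 10 as given. Without the filter on low counts, 2724 genes were beyond 2-fold, against 636 with it; no member was, under any scaling tried. For Bgn the ratio was -0.43 from unscaled TPM and, in 2 alternatives chosen after seeing the data, -0.41 from posterior mean TPM and -0.26 from the leading transcript alone. No paired analysis was possible because there is 1 group.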
